A study of Mus musculus with 18 samples.

Results

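The genes described here encode Wnt ligands, Frizzled receptors, secreted Wnt antagonists and 4 further genes of Wnt feedback or response. They were chosen by symbol, with earlier results of these data known. Every gene with the symbol Wnt, Fzd, Sfrp or Dkk followed by a number was taken, with Wif1, Axin2, Lef1, Lgr5 and Nkd1. This gave 42 of the 18193 genes measured: 19 Wnt ligands, 10 Frizzled receptors, 9 secreted antagonists, and Axin2, Lef1, Lgr5 and Nkd1. Each gene was represented by 1 probe set, a group of short oligonucleotides on the array that reads 1 transcript region, namely the one with the highest mean over all arrays.

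The material was lung of B6C3F1/N mice, a hybrid laboratory strain used in long-term carcinogenicity tests, with no engineered allele in the labels. There were 6 cobalt tumours, lung tumours of mice that inhaled cobalt metal aerosol, 6 spontaneous tumours, lung tumours not attributed to cobalt, and 6 control lungs of mice given the vehicle. The study exposed mice from 5 to 6 weeks of age for 6 hours a day on 5 days a week and for up to 105 weeks, at a cobalt level of 1.25 mg/m3, 2.5 mg/m3 or 5 mg/m3, with 0 mg/m3 as the control. The dose, the sex and the animal behind each array are not given in the labels used here, and p-values therefore cover only the spread among the arrays, part of which may be technical. Tumours were dissected away from the surrounding parenchyma, while a control was lung tissue with all its cell types.

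Wnt ligands are lipid-modified secreted glycoproteins. In the canonical branch a ligand binds a Frizzled receptor and an LRP co-receptor, the complex that destroys beta-catenin is inhibited, and beta-catenin enters the nucleus and activates genes together with TCF/LEF factors. Other ligands signal through Frizzled, ROR and RYK receptors to the cytoskeleton and to planar cell polarity. SFRP proteins and WIF1 bind the ligand outside the cell, and DKK1, DKK2 and DKK4 bind the co-receptor. In the mouse lung, Wnt2 of the mesenchyme and Wnt7b of the epithelium are known for their roles in development, and Wnt signals from fibroblasts are known to maintain alveolar type 2 cells.

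The 18 arrays had median log2 values of 6.32 to 6.45. Cobalt tumour 6 stood apart: its mean correlation across genes was 0.969 with the controls and 0.945 with the other cobalt tumours, and results that rest on it are given below with and without it. Xist, the RNA of the inactive X chromosome, was high in 4 of 6 cobalt tumours, 2 of 6 spontaneous tumours and 6 of 6 control lungs, so the sex of the animals may differ between the groups. One free-text description names control 6 a spontaneous tumour, while its title, source and group name control lung. Its correlation with control 5 was 0.9966. Lung identity was present in all groups: the mean log2 level of 10 alveolar type 2 markers was 13.45 to 13.65 in cobalt tumours, 12.28 to 13.84 in spontaneous tumours and 12.70 to 12.93 in control lungs. Spontaneous tumours 2 and 6 were the lowest at 12.40 and 12.28.

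More Wnt genes were lower than higher in tumours. In cobalt tumours 4 of the 42 genes were higher than in control lung and 16 were lower, at a Benjamini-Hochberg adjusted p of at most 0.05 in limma, with 22 not passing. In spontaneous tumours 4 were higher, 14 were lower and 24 did not pass. Over all 18193 genes, 14.7% were higher and 19.3% lower in cobalt tumours (34% in either direction), and 16.4% were higher and 18.2% lower in spontaneous tumours (34.6% in either direction). The Wnt genes therefore stood at 9.52% higher and 38.1% lower in cobalt tumours, and at 9.52% higher and 33.3% lower in spontaneous tumours. The median log2 change of the 42 genes was -0.16 in cobalt tumours and -0.19 in spontaneous tumours, against -0.03 over all genes in each comparison. Both comparisons share the 6 control lungs. Among arrays with high Xist alone, 3 Wnt genes were higher (7.14%, against 12.2% of all genes) and 11 lower (26.2%, against 15.6%) in 4 cobalt tumours. In 2 spontaneous tumours 3 were higher (7.14%, against 11.1% of all genes) and 10 lower (23.8%, against 12.6%). With these fewer arrays, Fzd7, Wnt1, Wnt4, Wnt9b, Fzd10 and Sfrp2 lost their call in cobalt tumours. In spontaneous tumours Wnt7b, Wnt1, Fzd3, Fzd10, Sfrp2 and Lgr5 lost theirs, and Nkd1 gained one.

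Fewer genes separated the groups completely. In cobalt tumours 4 Wnt genes lay above all controls (9.52%, against 8.1% of all genes) and 6 lay below all controls (14.3%, against 10.8% of all genes). Without cobalt tumour 6, 4 lay above (9.52%, against 12.1% of all genes) and 12 below (28.6%, against 16.6% of all genes). In spontaneous tumours 3 lay above all controls (7.14%, against 9.21% of all genes) and 11 below (26.2%, against 11.9% of all genes). Of the 42 genes, 18 were among the 6064 dimmest genes by mean level, 11 of them ligands. Fold changes of such dim probe sets can be understated in RMA values.

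**Figure D1:**
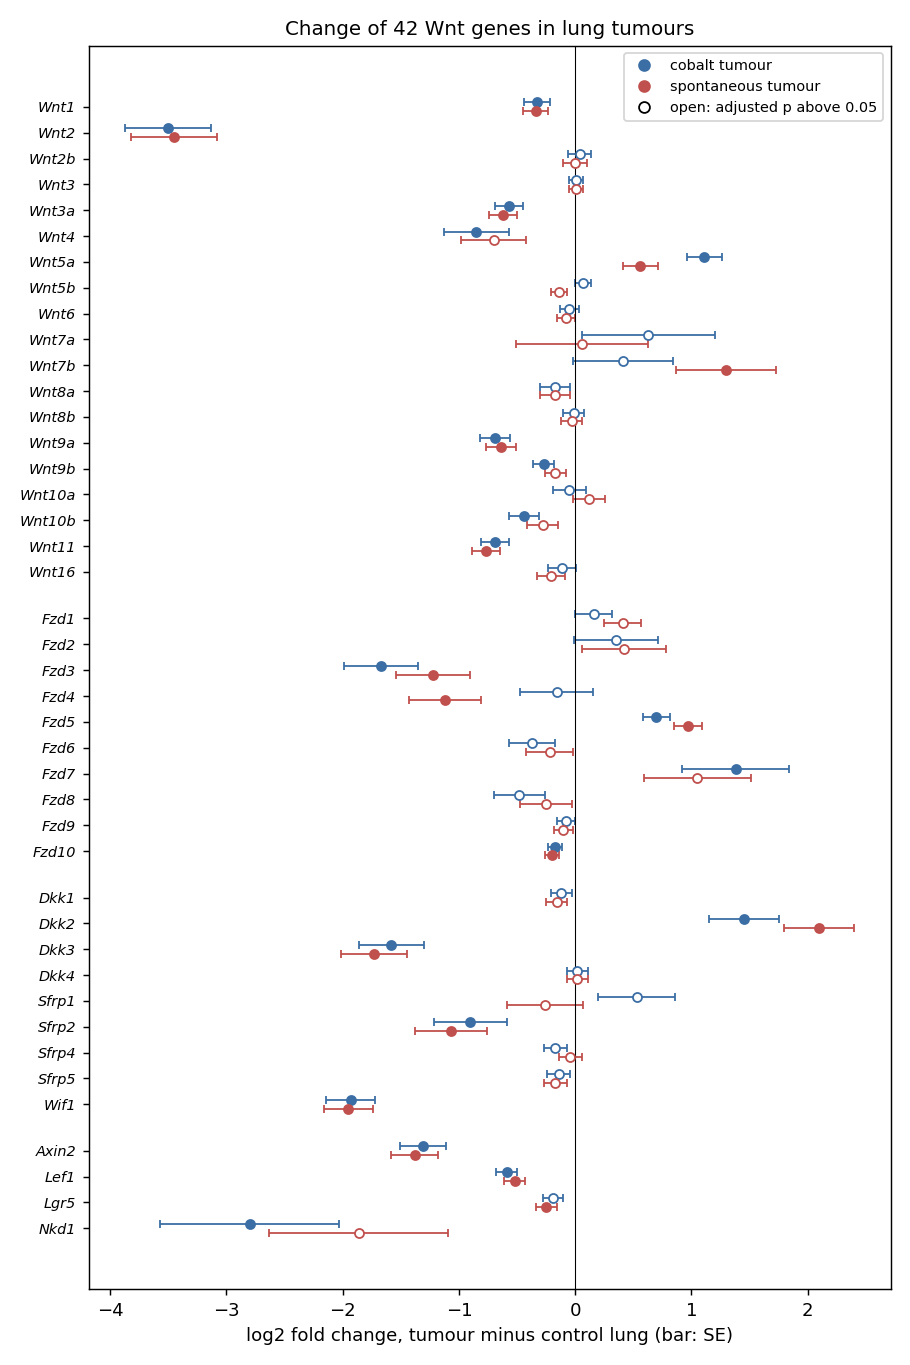
Log2 fold change of each of the 42 genes (horizontal axis, tumour minus control lung) in cobalt tumours and spontaneous tumours, with bars for the standard error and open points for adjusted p above 0.05. Wnt2 lies farthest left, at -3.50 in cobalt tumours and -3.45 in spontaneous tumours, and Dkk2 farthest right in each comparison, at 1.45 and 2.10.

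Among the ligands, 1 was higher and 8 were lower in cobalt tumours, with 10 not passing. In spontaneous tumours 2 were higher, 5 were lower and 12 did not pass. Wnt2, a ligand of the lung mesenchyme that specifies the lung together with Wnt2b in the mouse embryo, differed most from the controls (Entrez gene 22413). Its log2 level was 5.08 at the lowest, 5.29 at the median and 7.5 at the highest in cobalt tumours, 5.18, 5.52 and 6.59 in spontaneous tumours, and 8.11, 9.21 and 9.58 in control lungs. Every tumour was below every control. Wnt2 averaged 5.61 ± 0.93 in cobalt tumours, 5.66 ± 0.52 in spontaneous tumours and 9.11 ± 0.54 in control lungs (SD, n = 6 each). The difference was 11.3-fold lower in cobalt tumours (limma adjusted p = 2.44e-06) and 10.9-fold lower in spontaneous tumours (limma adjusted p = 2.79e-06). The highest tumour value was that of cobalt tumour 6, and the other 5 cobalt tumours lay between 5.08 and 5.34. Without that array Wnt2 was 14.6-fold lower in cobalt tumours (limma adjusted p = 7.1e-09).

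In each marker list of mesenchymal cells, more markers were lower than higher in both tumour groups. This was not particular to them. In each tumour group 12 of 12 endothelial, 10 of 10 ciliated, 8 of 10 alveolar type 1 and 6 of 8 heart muscle markers were lower. Of 8 club markers, 7 were lower in cobalt tumours and 5 in spontaneous tumours, and 1 was higher in each. Alveolar type 2, macrophage and cell cycle lists had more markers higher than lower in each group. Of 12 alveolar fibroblast markers, 11 were lower in each tumour group, and their mean log2 level was 7.37 to 10.99 in cobalt tumours, 7.33 to 9.56 in spontaneous tumours and 11.37 to 11.92 in control lungs. Tcf21, a defining factor of lung fibroblasts, was at 5.67 to 11 in cobalt tumours, 5.52 to 9.37 in spontaneous tumours and 11.97 to 12.37 in control lungs. Cobalt tumour 6 had the highest alveolar fibroblast level and the highest Wnt2 of all tumours. It was also highest for endothelial, ciliated and club markers, at 10.55, 7.88 and 11.99. The same held for alveolar type 1, smooth muscle and heart muscle markers, at 12.04, 8.58 and 7.8. Matrix fibroblast, mesothelial, alveolar type 2, macrophage and cell cycle markers were not highest in it. Of 12 smooth muscle and pericyte markers, 10 were lower and 1 higher in each tumour group, with a mean level of 7.78 to 8.58 in cobalt tumours, 7.76 to 8.34 in spontaneous tumours and 8.91 to 9.56 in control lungs. Of 10 matrix fibroblast markers, 0 were higher and 5 lower in cobalt tumours, and 2 were higher and 4 lower in spontaneous tumours, with a mean level of 7.82 to 9.19 in cobalt tumours, 8.15 to 9.22 in spontaneous tumours and 9.26 to 9.72 in control lungs. The 2 that were higher were the collagen genes Col1a1 and Col3a1, with log2 changes of 1.03 and 0.87 (limma adjusted p = 0.0155 and 0.0162). The part of these cells in the changes of Wnt2 and of the other Wnt genes was not tested. In bulk tissue, fewer cells of a type and less RNA per cell cannot be told apart.

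The start region of Wnt2 is shown because this gene had the greatest change of the 42. The 250 bases before its RefSeq start, at chr6:18030446-18030695 on the minus strand (GRCm38.p6), held 20 CpG dinucleotides and were 63.6% G or C. Neither the TCF/LEF words CTTTGAA and CTTTGAT nor the TATA word TATAAA was found there on either strand, so the sequence has no capitals.
Wnt2: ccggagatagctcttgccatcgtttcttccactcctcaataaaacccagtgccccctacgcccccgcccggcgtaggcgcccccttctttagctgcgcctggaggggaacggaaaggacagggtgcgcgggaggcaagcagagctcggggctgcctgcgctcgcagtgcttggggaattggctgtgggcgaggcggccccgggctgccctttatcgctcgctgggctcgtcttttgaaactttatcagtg

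Wnt11, a ligand known for ureteric bud branching and mostly non-canonical signalling, was lower with no overlap between tumours and controls. Levels on the log2 scale were 5.98, 6.22 and 6.50 in cobalt tumours (lowest, median and highest), 6.01, 6.12 and 6.47 in spontaneous tumours, and 6.71, 6.87 and 7.36 in control lungs. It was 1.62-fold lower in cobalt tumours (limma adjusted p = 0.000227) and 1.71-fold lower in spontaneous tumours (limma adjusted p = 8.18e-05). Its first RefSeq start region, at chr7:98834862-98835111 on the plus strand (GRCm38.p6), is shown because it held both a TCF/LEF word and a TATA word, as did that of Dkk1 and no other window of these genes. The capitals mark the TCF/LEF word (ATCAAAG, the other strand of CTTTGAT), whose first base is 51 bases before the start, and TATAAA, at 29 bases before it. A second start of Wnt11 held neither word.
Wnt11: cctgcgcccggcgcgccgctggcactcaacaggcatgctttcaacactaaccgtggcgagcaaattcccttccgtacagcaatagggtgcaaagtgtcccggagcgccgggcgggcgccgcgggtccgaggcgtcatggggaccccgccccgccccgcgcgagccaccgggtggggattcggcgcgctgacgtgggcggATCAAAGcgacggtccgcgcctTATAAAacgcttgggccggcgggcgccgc

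Start regions of 250 bases were at hand for 29 of the 42 genes, in 35 windows. A TCF/LEF word (CTTTGAA or CTTTGAT, both strands) was in 3 of the 35 windows, those of Wnt11, Dkk1 and 1 start of Wnt5b, against 7.48% of 32851 windows of all genes. TATAAA on either strand was in 6 of the 35 windows, against 12.4% of all windows. Wnt11 was lower in tumours, while Dkk1 and Wnt5b did not pass the test.

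Wnt3a and Wnt9a were lower in each tumour group as well, and Wnt3a was among those dimmest genes. Wnt3a, a canonical ligand required for the embryonic tail bud, was at 5.58, 5.73 and 6.23 in cobalt tumours (lowest, median and highest), 5.45, 5.76 and 5.92 in spontaneous tumours, and 6.09, 6.37 and 6.57 in control lungs. Its log2 change was -0.57 in cobalt tumours and -0.62 in spontaneous tumours (limma adjusted p = 0.00108 and 0.000558). Spontaneous tumours did not overlap the controls, and among cobalt tumours number 6 alone reached their range. Wnt9a, a ligand known for joint formation, was at 6.34, 6.40 and 7.15 in cobalt tumours, 6.33, 6.62 and 6.76 in spontaneous tumours, and 7.04, 7.14 and 7.54 in control lungs. Its log2 change was -0.69 in cobalt tumours and -0.64 in spontaneous tumours (limma adjusted p = 0.000581 and 0.00114), again with cobalt tumour 6 as the only tumour inside the control range. A second, dimmer Wnt9a probe set changed by -0.1 in each group and did not pass in a fit of all probe sets (limma adjusted p = 0.613 and 0.592). The average of the probe sets gave -0.39 and -0.37 in the same order (limma adjusted p = 0.00123 and 0.00213).

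Wnt4, a ligand required for kidney tubules and the female reproductive tract, passed in cobalt tumours. In log2 units it was at 6.76, 7.14 and 8.20 in cobalt tumours (lowest, median and highest), 6.66, 7.30 and 8.61 in spontaneous tumours, and 7.82, 8.06 and 8.42 in control lungs. It was 1.8-fold lower in cobalt tumours (limma adjusted p = 0.0271, and 0.00484 without cobalt tumour 6). The difference between the 2 tumour groups was not past the threshold for Wnt4. Its change in spontaneous tumours was -0.70 with an adjusted p of 0.0645, and -0.94 with an adjusted p of 0.00522 without spontaneous tumour 6, which had the highest value. The cobalt call was lost without control 1 or 3 or without cobalt tumour 1, 3 or 5 (limma adjusted p = 0.0506 to 0.0658).

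Smaller changes were seen in 3 further ligands. Wnt1, the ligand of midbrain development, had a log2 change of -0.33 in cobalt tumours and -0.34 in spontaneous tumours (limma adjusted p = 0.0202 and 0.0178), and the cobalt call was lost without control 3 (limma adjusted p = 0.0512). Wnt10b, known for restraining fat cell formation, had a log2 change of -0.44 in cobalt tumours (limma adjusted p = 0.0115) and -0.28 in spontaneous tumours (limma adjusted p = 0.103). Its highest cobalt tumour, at 5.95, lay just below the lowest control, at 5.96. Wnt9b, known for kidney tubule induction, differed by -0.27 in cobalt tumours (limma adjusted p = 0.0292) and by -0.17 without passing in spontaneous tumours (limma adjusted p = 0.153). The Wnt9b result is uncertain, because another of its probe sets was higher in cobalt tumours, by 0.29 (limma adjusted p = 0.0097 in a fit of all probe sets). It was also lost without any 1 of controls 1, 2 and 6 or cobalt tumours 1, 3 and 5 (limma adjusted p = 0.0518 to 0.0624). Wnt1 and Wnt10b were among those dimmest genes.

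Wnt5a, the main non-canonical ligand and a regulator of distal lung growth, was higher in tumours (Entrez gene 22418). Arrays read it at log2 levels of 6.73, 7.31 and 7.60 in cobalt tumours (lowest, median and highest), 6.35, 6.63 and 7.09 in spontaneous tumours, and 5.94, 6.11 and 6.51 in control lungs. All cobalt tumours were above all controls, while spontaneous tumours overlapped them. Wnt5a averaged 7.27 ± 0.29 in cobalt tumours, 6.72 ± 0.29 in spontaneous tumours and 6.16 ± 0.22 in control lungs (SD, n = 6 each). It was 2.15-fold higher in cobalt tumours (limma adjusted p = 2.75e-05) and 1.47-fold higher in spontaneous tumours (limma adjusted p = 0.00817). With the average of its probe sets, the spontaneous change was 0.34 and did not pass (limma adjusted p = 0.0773).

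Wnt7b, the epithelial ligand that drives mesenchymal growth in the developing lung, was higher in spontaneous tumours, mostly in 2 of them. Its log2 level was 7.56, 7.83 and 9.38 in cobalt tumours (lowest, median and highest), 8, 8.34 and 10.70 in spontaneous tumours, and 7.25, 7.65 and 7.92 in control lungs. Spontaneous tumours 2 and 6 had 10.70 and 10.15, the other 4 had 8 to 8.41, and all 6 were above all controls. Wnt7b was 2.46-fold higher in spontaneous tumours (limma adjusted p = 0.0264), and its log2 change in cobalt tumours was 0.41 (limma adjusted p = 0.507). The call was lost without spontaneous tumour 2 (change 0.94, adjusted p = 0.0543), spontaneous tumour 6 (1.05, adjusted p = 0.0645), both of them (0.55, adjusted p = 0.137) or control 5 (1.23, adjusted p = 0.0536). Among arrays with high Xist alone it was lost as well (1.46, limma adjusted p = 0.0642, 2 tumours). Those 2 tumours also had the lowest alveolar type 2 marker levels, whose part in this result was not tested.

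Wnt7a, known for dorsal limb patterning, varied widely between tumours and passed in neither group by its brightest probe set. Its log2 level in cobalt tumours 1 to 6 was 6.81, 6.65, 6.75, 9.81, 9.05 and 7.19, in spontaneous tumours 1 to 6 it was 6.63, 8.23, 6.84, 6.37, 5.81 and 8.94, and in control lungs it was 6.46 to 7.38. Cobalt tumours 4 and 5 and spontaneous tumours 2 and 6 were above all controls, and spontaneous tumours 4 and 5 below all of them. The log2 change was 0.63 in cobalt tumours (limma adjusted p = 0.435) and 0.06 in spontaneous tumours (limma adjusted p = 0.95). A second Wnt7a probe set was lower in each group, with log2 changes of -0.29 in cobalt tumours and -0.31 in spontaneous tumours (limma adjusted p = 0.0106 and 0.00738 in a fit of all probe sets), so the probe sets disagree. The other 8 ligands that passed in neither comparison, Wnt2b, Wnt3, Wnt5b, Wnt6, Wnt8a, Wnt8b, Wnt10a and Wnt16, were all among those dimmest genes and had log2 changes between -0.21 and 0.12.

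**Figure D2:**
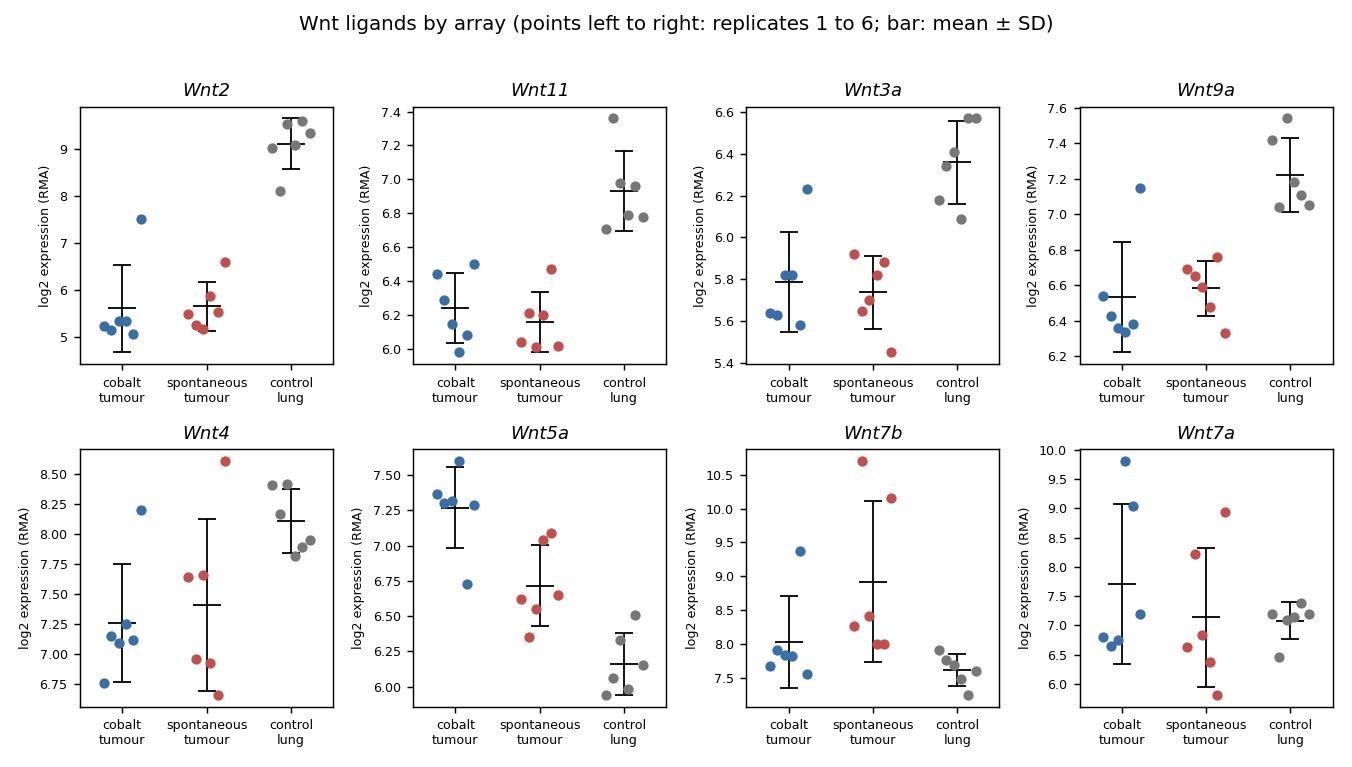
Log2 expression of 8 Wnt ligands on each array, in panels with cobalt tumours, spontaneous tumours and control lungs from left to right, with bars for the mean ± SD of 6 arrays. Wnt2 lies at 5.08 to 7.5 in cobalt tumours and 5.18 to 6.59 in spontaneous tumours, below the 8.11 to 9.58 of control lungs, while Wnt5a is higher in tumours and Wnt7a is scattered among them.

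Among the 10 Frizzled receptors, 2 were higher and 2 lower in cobalt tumours (20% and 20%, against 14.7% and 19.3% of all genes). In spontaneous tumours 1 was higher and 3 were lower (10% and 30%, against 16.4% and 18.2% of all genes). Fzd5, a canonical receptor that Paneth cells of the gut require, was higher with no overlap between tumours and controls. Levels on the log2 scale were 8.49, 8.79 and 8.94 in cobalt tumours (lowest, median and highest), 8.84, 9.04 and 9.19 in spontaneous tumours, and 7.77, 7.97 and 8.41 in control lungs. It was 1.63-fold higher in cobalt tumours (limma adjusted p = 0.000151) and 1.96-fold higher in spontaneous tumours (limma adjusted p = 7.19e-06). A second, dimmer Fzd5 probe set did not pass in a fit of all probe sets. It changed by 0.09 in cobalt tumours and 0.13 in spontaneous tumours (limma adjusted p = 0.464 and 0.272). The average of the probe sets gave log2 changes of 0.40 and 0.55 in the same order (limma adjusted p = 0.000183 and 8.22e-06). Fzd5 averaged 8.77 ± 0.17 in cobalt tumours, 9.04 ± 0.14 in spontaneous tumours and 8.06 ± 0.27 in control lungs (SD, n = 6 each).

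Fzd3, a planar polarity receptor that guides axons, was lower with no overlap in either group. In log2 units it was at 5.04, 5.96 and 7.24 in cobalt tumours (lowest, median and highest), 5.65, 6.55 and 7.37 in spontaneous tumours, and 7.54, 7.73 and 7.83 in control lungs. It was 3.17-fold lower in cobalt tumours (limma adjusted p = 0.000574) and 2.33-fold lower in spontaneous tumours (limma adjusted p = 0.00646). With the average of its 6 probe sets, the log2 change of Fzd3 was -0.45 in cobalt tumours and -0.35 in spontaneous tumours, against -1.67 and -1.22 with its brightest one (limma adjusted p = 0.00107 and 0.00744 for the average). Fzd3 had an SD of 0.78 in cobalt tumours and 0.65 in spontaneous tumours, against 0.11 in control lungs (n = 6 each). Among arrays with high Xist alone, its change in spontaneous tumours was -1.20 (limma adjusted p = 0.0719, 2 tumours).

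Fzd7, a receptor of gut stem cells, differed widely among tumours. Its log2 level in cobalt tumours 1 to 6 was 10.96, 10.93, 10.66, 9.64, 9.03 and 9.35, in spontaneous tumours 1 to 6 it was 10.02, 8.02, 10.34, 10.87, 10.70 and 8.58, and in control lungs it was 8.45 to 9.02. All cobalt tumours were above all controls, and spontaneous tumours were too except tumours 2 and 6. Fzd7 was 2.61-fold higher in cobalt tumours (limma adjusted p = 0.0265), a call that was lost without control 2 or without cobalt tumour 1, 2 or 3 (limma adjusted p = 0.0517 to 0.0652). Its log2 change in spontaneous tumours was 1.05 (limma adjusted p = 0.0889), and 1.77 without spontaneous tumours 2 and 6 (limma adjusted p = 0.00103). A second, dimmer Fzd7 probe set did not pass in cobalt tumours (0.58, limma adjusted p = 0.124 in a fit of all probe sets). The average of the probe sets gave 0.98 there (limma adjusted p = 0.0413), against 1.38 with the brightest one.

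Fzd4, the receptor of the vascular ligand Norrin in retinal endothelium, was lower in spontaneous tumours. Arrays read it at log2 levels of 9.85, 10.79 and 11.23 in cobalt tumours (lowest, median and highest), 8.49, 9.95 and 10.25 in spontaneous tumours, and 10.48, 10.76 and 10.99 in control lungs. All spontaneous tumours were below all controls, and cobalt tumours lay on both sides of them. It was 2.18-fold lower in spontaneous tumours (limma adjusted p = 0.00864), and its log2 change in cobalt tumours was -0.16 (limma adjusted p = 0.74). Endothelial markers were lower in each tumour group, 12 of 12, with a mean log2 level of 8.06 to 10.55 in cobalt tumours, 8.12 to 9.50 in spontaneous tumours and 11.41 to 11.81 in control lungs, and their part in the Fzd4 result was not tested.

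Fzd10 had a log2 change of -0.17 in cobalt tumours and -0.20 in spontaneous tumours (limma adjusted p = 0.0429 and 0.0151). Its highest spontaneous tumour lay just below its lowest control, both at 6.61 after rounding. Its cobalt call was lost without controls 2, 4, 5 or 6, spontaneous tumours 1 or 3 or any of cobalt tumours 2 to 6 (limma adjusted p = 0.0516 to 0.104), and the mean of its probe sets gave -0.01. Fzd1, Fzd2, Fzd6, Fzd8 and Fzd9 did not pass in either comparison, with changes from -0.48 to 0.42. Fzd6, a planar polarity receptor that patterns hair, had a log2 change of -0.51 in cobalt tumours without cobalt tumour 6 (limma adjusted p = 0.0411). Fzd1 had a change of 0.41 in spontaneous tumours (limma adjusted p = 0.0569), and it passed without control 5, spontaneous tumour 2, spontaneous tumour 6 or cobalt tumour 4 (limma adjusted p = 0.0187 to 0.0499).

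**Figure D3:**
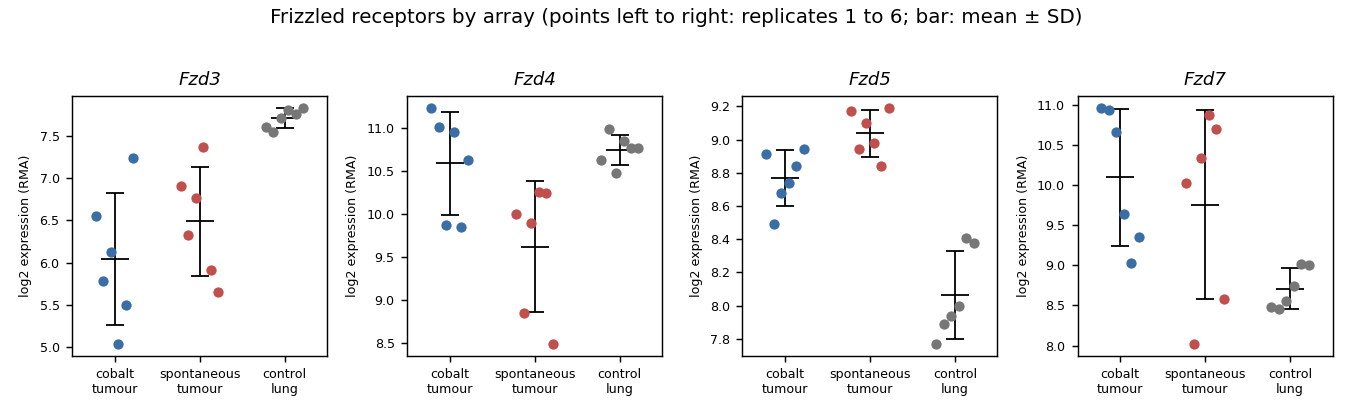
Log2 expression of Fzd3, Fzd4, Fzd5 and Fzd7 on each array, with cobalt tumours, spontaneous tumours and control lungs from left to right and bars for the mean ± SD of 6 arrays. Fzd5 is higher and Fzd3 lower in every tumour than in every control, and Fzd7 ranges from 8.02 to 10.87 among spontaneous tumours.

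Among the 9 secreted antagonists, 1 was higher and 3 were lower in each tumour group (11.1% and 33.3%). Over all genes the shares were 14.7% and 19.3% in cobalt tumours, and 16.4% and 18.2% in spontaneous tumours. The one that was higher was Dkk2, a Dickkopf protein that binds the LRP co-receptors (Entrez gene 56811). Its log2 level was 5.66, 6.33 and 7.23 in cobalt tumours (lowest, median and highest), 6.30, 6.91 and 8.11 in spontaneous tumours, and 4.55, 4.91 and 5.16 in control lungs. Every tumour was above every control. Dkk2 averaged 6.35 ± 0.55 in cobalt tumours, 7 ± 0.77 in spontaneous tumours and 4.90 ± 0.20 in control lungs (SD, n = 6 each). It was 2.73-fold higher in cobalt tumours (limma adjusted p = 0.00118) and 4.28-fold higher in spontaneous tumours (limma adjusted p = 4.54e-05). Among arrays with high Xist alone its log2 change in spontaneous tumours was 1.44, against 2.10 (limma adjusted p = 0.00742, 2 tumours). Its mean over all arrays placed it among the dimmest genes. Its start region, at chr3:132085042-132085291 on the plus strand (GRCm38.p6), is shown beside that of Wnt2 as the one of the gene with the greatest rise. It held 7 CpG dinucleotides, was 55.6% G or C, and had TATAAA (capitals) 32 bases before the start and no TCF/LEF word.
Dkk2: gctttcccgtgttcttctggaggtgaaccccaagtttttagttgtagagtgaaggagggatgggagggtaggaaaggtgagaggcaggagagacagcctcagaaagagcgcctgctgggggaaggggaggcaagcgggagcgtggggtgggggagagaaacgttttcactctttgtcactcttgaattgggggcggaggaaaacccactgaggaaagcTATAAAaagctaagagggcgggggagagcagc

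Dkk3, a divergent Dickkopf that is not known to bind the LRP co-receptors as the others do, was lower. Levels on the log2 scale were 6.66, 7.56 and 9.15 in cobalt tumours (lowest, median and highest), 7.05, 7.66 and 7.75 in spontaneous tumours, and 9.01, 9.23 and 9.52 in control lungs. Cobalt tumour 6, at 9.15, was the only tumour inside the control range. Dkk3 was 2.99-fold lower in cobalt tumours (limma adjusted p = 0.000271) and 3.32-fold lower in spontaneous tumours (limma adjusted p = 0.000119). Without cobalt tumour 6 it was 3.68-fold lower in cobalt tumours (limma adjusted p = 2.25e-07).

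Wif1, which binds Wnt ligands outside the cell, was lower in each tumour than in each control. In log2 units it was at 3.71, 3.89 and 4.64 in cobalt tumours (lowest, median and highest), 3.79, 4.01 and 4.32 in spontaneous tumours, and 5.40, 5.92 and 6.89 in control lungs. It was 3.81-fold lower in cobalt tumours (limma adjusted p = 3.08e-06) and 3.87-fold lower in spontaneous tumours (limma adjusted p = 2.79e-06). Those tumour values lay near the lowest value in the table, 3.34, so the fold may be understated.

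Sfrp2, a decoy with the ligand-binding domain of a Frizzled, was at 4.19, 4.45 and 5.89 in cobalt tumours (lowest, median and highest), 4.23, 4.48 and 4.72 in spontaneous tumours, and 4.50, 5.65 and 6.67 in control lungs. The groups overlapped in both comparisons. Its log2 change was -0.90 in cobalt tumours (limma adjusted p = 0.0324) and -1.07 in spontaneous tumours (limma adjusted p = 0.0126). The cobalt call was lost without any of controls 1, 4, 5 and 6 or cobalt tumours 1 to 5 (limma adjusted p = 0.0531 to 0.0799), and was -1.15 without cobalt tumour 6 (limma adjusted p = 0.00246). Wif1 and Sfrp2 were among the dimmest genes. Dkk1, Dkk4, Sfrp1, Sfrp4 and Sfrp5 passed in neither comparison. Sfrp1, a further Frizzled-like decoy, reached 8.04, 8.81 and 9.07 in cobalt tumours 4, 5 and 6, above the highest control at 7.87.

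Of the 4 feedback or response genes, 3 were lower (75%) and none higher in each tumour group. Over all genes 19.3% were lower and 14.7% higher in cobalt tumours, and 18.2% and 16.4% in spontaneous tumours. Axin2, a scaffold of the complex that destroys beta-catenin and the standard readout of canonical signalling in many tissues, was lower in each (Entrez gene 12006). Arrays read it at log2 levels of 7.11, 7.32 and 8.46 in cobalt tumours (lowest, median and highest), 7.01, 7.44 and 7.69 in spontaneous tumours, and 8.27, 8.92 and 8.97 in control lungs. Cobalt tumour 6, at 8.46, was the only tumour above the lowest control. Axin2 averaged 7.48 ± 0.49 in cobalt tumours, 7.40 ± 0.26 in spontaneous tumours and 8.79 ± 0.27 in control lungs (SD, n = 6 each). It was 2.47-fold lower in cobalt tumours (limma adjusted p = 6.65e-05), 2.83-fold lower without cobalt tumour 6 (limma adjusted p = 2.55e-07), and 2.61-fold lower in spontaneous tumours (limma adjusted p = 3.86e-05). The average of its probe sets gave log2 changes of -0.91 in cobalt tumours and -0.92 in spontaneous tumours (limma adjusted p = 5.39e-05 and 4.59e-05). Its brightest probe set gave -1.31 and -1.38. The start region of Axin2 is shown because the gene is a known target of TCF/LEF factors. The 250 bases at chr11:108920099-108920348 on the plus strand (GRCm38.p6) held 24 CpG dinucleotides, were 69.2% G or C, and contained none of the words searched, so no letter is capital.
Axin2: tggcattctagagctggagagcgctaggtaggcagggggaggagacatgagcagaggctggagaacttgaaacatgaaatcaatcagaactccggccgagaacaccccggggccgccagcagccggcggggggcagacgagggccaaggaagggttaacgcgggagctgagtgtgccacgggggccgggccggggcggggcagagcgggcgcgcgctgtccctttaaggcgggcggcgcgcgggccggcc

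Nkd1, an inhibitor that binds Dishevelled and is induced by canonical signalling, had the widest spread of the 42 genes in cobalt tumours. Its log2 level in cobalt tumours 1 to 6 was 5.08, 7.75, 6.76, 5.74, 5.73 and 10.06, in spontaneous tumours 1 to 6 it was 9.84, 5.71, 8.83, 8.03, 8.42 and 5.92, and in control lungs it was 9.30 to 9.93. Cobalt tumour 6 was above all controls, spontaneous tumour 1 within their range and the other 10 tumours below them. Nkd1 was 6.97-fold lower in cobalt tumours (limma adjusted p = 0.00857) and 10.9-fold lower without cobalt tumour 6 (limma adjusted p = 0.000374). Its log2 change in spontaneous tumours was -1.86 (limma adjusted p = 0.07). It passed in 6 alternatives, with an adjusted p of 0.0244 to 0.043: without spontaneous tumour 1 (-2.27), without cobalt tumour 6, in the 12 arrays alone, in arrays with high Xist (-2.68), by exact permutation and with the average of its probe sets. That average gave smaller changes, -1.40 in cobalt tumours and -1.03 in spontaneous tumours (limma adjusted p = 0.00724 and 0.0394). Arrays with high Xist gave -2.08 in cobalt tumours (limma adjusted p = 0.0404).

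Lef1, a TCF/LEF factor that binds DNA with beta-catenin, was lower with no overlap in either group. Its log2 level was 6.44, 6.66 and 6.86 in cobalt tumours (lowest, median and highest), 6.50, 6.78 and 6.97 in spontaneous tumours, and 7.01, 7.27 and 7.38 in control lungs. It was 1.51-fold lower in cobalt tumours (limma adjusted p = 8.85e-05) and 1.43-fold lower in spontaneous tumours (limma adjusted p = 0.000284). A second, dimmer Lef1 probe set changed by -0.15 in each group and did not pass in a fit of all probe sets (limma adjusted p = 0.201 and 0.22). The average of the probe sets gave -0.37 in cobalt tumours and -0.33 in spontaneous tumours (limma adjusted p = 0.000861 and 0.0022). Lgr5, an R-spondin receptor and marker of gut stem cells, was dim and had a log2 change of -0.19 in cobalt tumours (limma adjusted p = 0.123) and -0.25 in spontaneous tumours (limma adjusted p = 0.0439). Its call in spontaneous tumours was lost without any of controls 1, 3, 4 and 5, spontaneous tumours 1, 2 and 4 or cobalt tumours 1 to 5 (limma adjusted p = 0.0511 to 0.101).

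**Figure D4:**
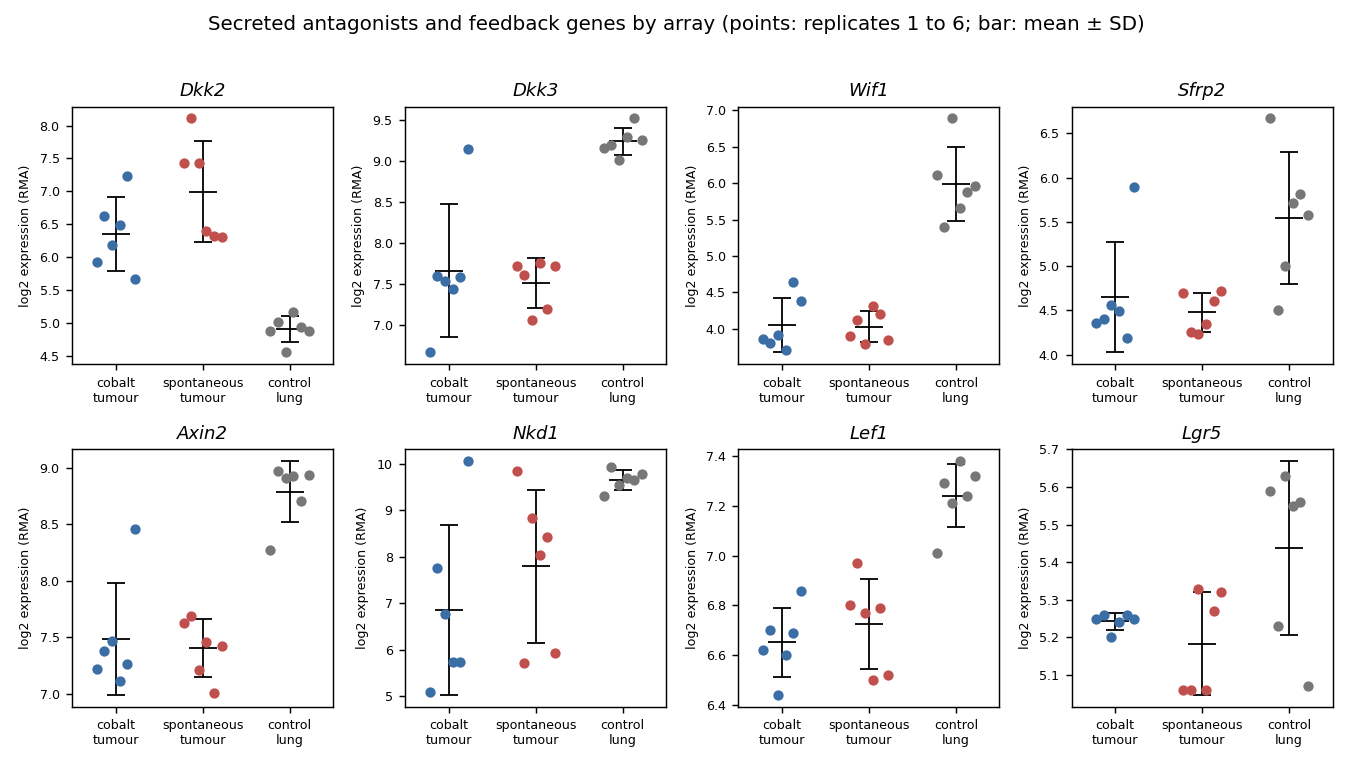
Log2 expression of 4 secreted antagonists and 4 feedback or response genes on each array, with cobalt tumours, spontaneous tumours and control lungs from left to right and bars for the mean ± SD of 6 arrays. Dkk2 is higher in every tumour than in every control, Wif1 and Lef1 are lower in every tumour, and cobalt tumour 6 has the highest value of its group for Dkk3, Axin2 and Nkd1, at 9.15, 8.46 and 10.06.

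No Wnt gene differed between cobalt and spontaneous tumours at an adjusted p of 0.05 in limma. Over all genes 15 of 18193 did, or 0.0824%. Of the 42 genes 6 had an unadjusted p under 0.05 in limma, and so did 2105 of all 18193 genes. Wnt5a had the smallest adjusted p, 0.178, with a cobalt minus spontaneous difference of 0.55 on the log2 scale (95% interval 0.23 to 0.87). The cobalt minus spontaneous difference was 0.97 for Fzd4 (0.32 to 1.61, adjusted p = 0.224) and 0.79 for Sfrp1 (0.10 to 1.48, adjusted p = 0.347). For Dkk2 the difference was -0.65 (-1.29 to -0.01, adjusted p = 0.423), for Fzd5 -0.27 (-0.51 to -0.03, adjusted p = 0.366) and for Wnt5b 0.21 (0.05 to 0.36, adjusted p = 0.269). The interval for Wnt2 was -0.83 to 0.74 around a difference of -0.05, and for Axin2 -0.33 to 0.49 around 0.08. The interval for Nkd1 ran from -2.56 to 0.68, which leaves differences of more than 2-fold in range.

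**Figure D5:**
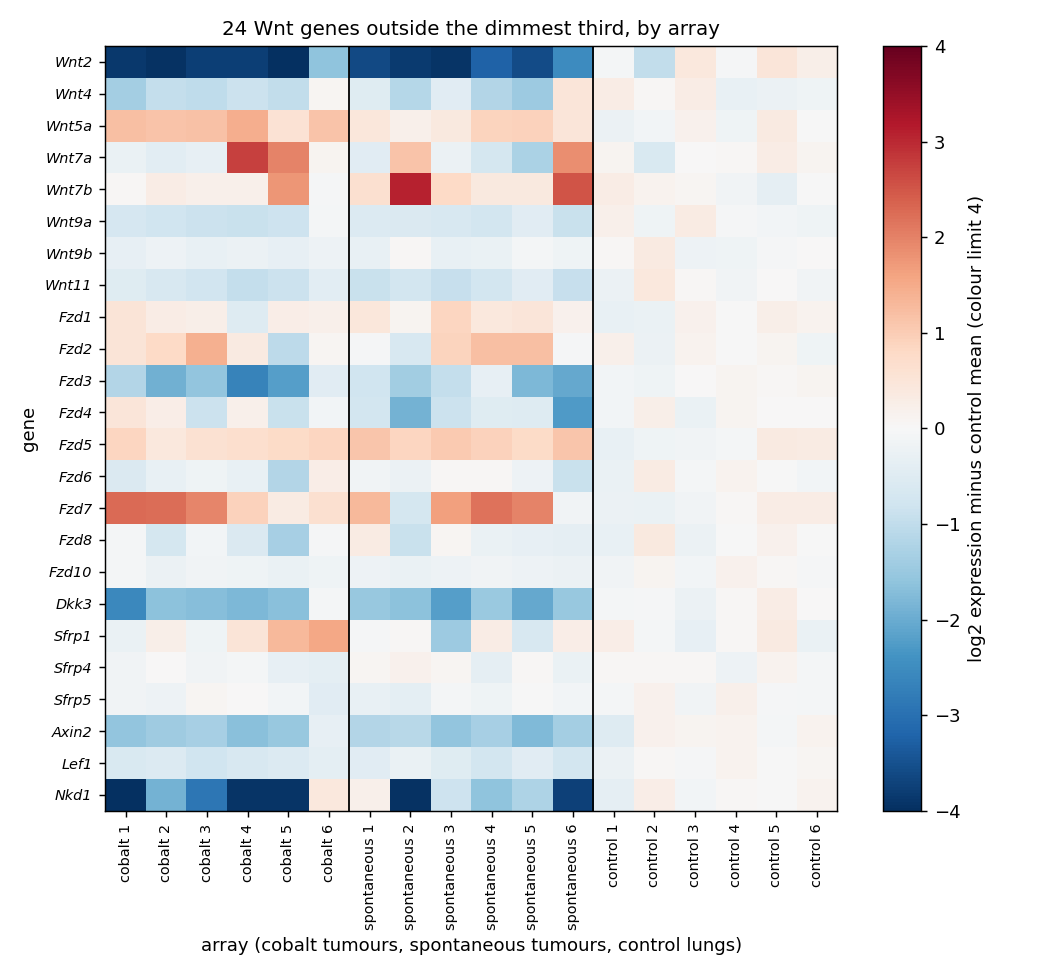
Deviation of each array from the mean of the control lungs (colour, log2 units) for the 24 brighter genes of the 42 in rows and the 18 arrays in columns, cobalt tumours first, then spontaneous tumours and control lungs. Wnt2, Axin2 and Dkk3 are below the control mean in all 12 tumours, Fzd5 and Wnt5a are above it in all 12, and Nkd1, Wnt7a and Fzd7 differ from tumour to tumour.

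Other genes of the pathway were followed through a list of 70 genes, of which 68 were measured. In cobalt tumours 16 were higher and 15 lower (23.5% and 22.1%, against 14.7% and 19.3% of all genes). In spontaneous tumours 15 were higher and 16 lower (22.1% and 23.5%, against 16.4% and 18.2% of all genes). In each comparison 37 did not pass. The median log2 change of the 68 genes was 0.01 in cobalt tumours and -0.02 in spontaneous tumours. The counts of the shorter lists below stand against the same shares of all genes. Between the tumour groups none of the 68 passed in limma. An unadjusted p under 0.05 was found for 6 of the 68, and for 2105 of all 18193 genes. Amer1, a membrane adaptor of the beta-catenin destruction complex, came nearest, with a cobalt minus spontaneous difference of 0.70 (limma adjusted p = 0.0591).

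Of 9 genes of ligand release and the R-spondin branch, 1 was higher and 3 lower in cobalt tumours, and 2 were higher and 3 lower in spontaneous tumours. Wls, which carries Wnt ligands to the cell surface, was 1.86-fold higher in cobalt tumours and 2.02-fold higher in spontaneous tumours (limma adjusted p = 0.00219 and 0.000839), while Notum, which removes their lipid, had log2 changes of -0.65 and -0.74 in the same order (limma adjusted p = 0.000141 and 4.48e-05). Rspo1, a ligand that amplifies Wnt signalling, was 5.84-fold lower in cobalt tumours and 7.32-fold lower in spontaneous tumours (limma adjusted p = 1.16e-06 and 3.26e-07). Rspo1 is also a mesothelial marker, and 4 of 8 mesothelial markers were lower in each tumour group. Rspo1 itself is among the 8 and among the 4 that were lower. The part of mesothelial cells was not tested. Among 8 co-receptors and related receptors, Ror2 and Ryk were lower in each group and none was higher. Of 7 measured antagonists with other symbols, 0 were higher and 1 lower in cobalt tumours. In spontaneous tumours 1 was higher and 1 lower. Draxin, an axon guidance protein that also inhibits Wnt signalling, had log2 changes of -0.27 in cobalt tumours and -0.32 in spontaneous tumours (limma adjusted p = 0.0161 and 0.00586). Frzb, a Frizzled-like decoy, was 7.54-fold higher in spontaneous tumours (limma adjusted p = 0.00594), and its log2 change in cobalt tumours was 1.48 (limma adjusted p = 0.146).

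Of 9 planar polarity genes, 1 was higher and 5 were lower in cobalt tumours, and 1 was higher and 6 were lower in spontaneous tumours. Prickle1, a core planar polarity protein, was at 5.19, 5.63 and 8.66 in cobalt tumours (lowest, median and highest), 5.35, 7.06 and 7.97 in spontaneous tumours, and 10.29, 10.77 and 11.12 in control lungs. It was 24.1-fold lower in cobalt tumours and 14.4-fold lower in spontaneous tumours (limma adjusted p = 3.26e-06 and 1.84e-05). Its relative Prickle2 was 10.8-fold and 8.08-fold lower in the same order (limma adjusted p = 4e-05 and 0.000128). Celsr1, an adhesion receptor of the same system, was 2.51-fold higher in cobalt tumours and 2.44-fold higher in spontaneous tumours (limma adjusted p = 2.92e-06 and 4.05e-06). No tumour overlapped the controls in these 3 genes.

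Inside the cell, Ctnnb1, which encodes beta-catenin, had log2 changes of 0.07 in cobalt tumours and 0.19 in spontaneous tumours and did not pass (limma adjusted p = 0.549 and 0.0777). Of 17 cytoplasmic genes, 6 were higher and 2 lower in cobalt tumours, and 5 were higher and 2 lower in spontaneous tumours. The 2 that were lower in each were Nkd2 and Dact3, relatives of Nkd1 and of the Dishevelled-binding Dapper proteins. Among 10 nuclear genes, Tle4, a co-repressor of TCF/LEF factors, was 2.48-fold lower in cobalt tumours and 2.72-fold lower in spontaneous tumours (limma adjusted p = 0.000559 and 0.000251), and Tcf7l2, a TCF factor, was 1.7-fold and 1.82-fold higher in the same order (limma adjusted p = 0.011 and 0.00503).

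Genes reported as Wnt targets in other tissues did not all change in the direction of Axin2. Of 8 such genes, 5 were higher and 1 was lower in cobalt tumours, and 4 were higher and 1 was lower in spontaneous tumours. Myc, a growth regulator, was 3.27-fold higher in cobalt tumours and 3.28-fold higher in spontaneous tumours (limma adjusted p = 0.00512 and 0.0052), and Sox9, a factor of the embryonic lung tip, was 4.93-fold and 4.99-fold higher in the same order (limma adjusted p = 0.00458 and 0.00447). Tnfrsf19, a receptor of the TNF family, was 6.75-fold lower in cobalt tumours and 8.38-fold lower in spontaneous tumours (limma adjusted p = 6.76e-05 and 2.47e-05). Ccnd1, Cd44 and, in cobalt tumours, Bambi were the others that were higher. Each of these genes also answers to other pathways.

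Several of the 42 genes were read by more than 1 probe set, which gave 42 further probe sets of 26 genes. In cobalt tumours, 20 of them belonged to genes that had passed: 17 had the same sign, 9 passed in the same direction in a fit of all probe sets, and 1, of Wnt9b, passed in the opposite direction. In spontaneous tumours, 18 belonged to genes that had passed: 18 had the same sign, 6 passed in the same direction and 0 in the opposite one. Of the genes that had not passed, 1 further probe set passed in cobalt tumours and 3 in spontaneous tumours.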

How the data were processed

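Total RNA of 18 samples was measured on an Affymetrix mouse 3' expression array, 1 sample per array. The authors deposited expression on a log2 scale, computed by RMA according to the submitters' processing notes. The RMA version is not given in the sources used here. Values were used as deposited. RMA makes the distributions of arrays alike and can compress the changes of dim probe sets. Detection calls were not used here, and the number of arrays limits the precision.

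From 45101 probe sets, the 34945 with 1 symbol were kept, and 932 with several, 9160 with none and 64 controls were left out. Each of 18193 genes was read from its brightest probe set on average. All 42 symbols matched a RefSeq gene and its Entrez identifier. Samples were grouped by title, source and group label. limma 3.58.1 in R 4.3.3 (lmFit and eBayes) was fitted once to all 18 arrays, with group as the factor, and two-sided p-values were adjusted by Benjamini-Hochberg across 18193 genes (threshold 0.05). The tests were tested on simulated data.

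The 42 genes, the pathway and cell type lists, the tests and the alternatives were chosen with earlier results of these data known. All members were eligible to be named. Full values are given for those past the threshold with a change of at least 2-fold or no overlap, except Wnt10b and Fzd10. For the pathway list, values are given for up to a few members per direction. Exact values per array are given where tumours varied widely. Alternatives were other normalization, probe set choices, filters and model options, fits of 12 arrays or of arrays with an Xist level above 10, the replicate number as a block, each array left out, and exact permutation over 924 assignments (smallest p 0.00216). Leaving out spontaneous tumours 2 and 6 together was chosen after seeing the data. Promoter sequences are RefSeq's, from GRCm38.p6.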

Additional observations from a re-analysis of the deposited data

Results flagged for a closer look

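In 17 of 126 sets of 6 arrays (42 genes in 3 groups), the highest or lowest array was farther from its nearest neighbour than Dixon's 95% limit for 6 values allows, where chance gives about 1 in 20. Cobalt tumour 6 accounted for 7 of them, all as the highest of its group: Wnt2 at 7.5, Wnt3a at 6.23, Wnt4 at 8.20, Wnt9a at 7.15, Dkk3 at 9.15, Sfrp2 at 5.89 and Axin2 at 8.46 on the log2 scale. Each of these 7 genes was lower in cobalt tumours than in control lungs. The same array had the highest endothelial and alveolar fibroblast marker levels of all tumours, at 10.55 and 10.99. It was also the highest tumour for ciliated, club, alveolar type 1, smooth muscle and heart muscle markers, though not for the remaining lists. Among the other cobalt tumours, tumour 5 was high for Wnt7b at 9.38 and low for Wnt5a at 6.73, tumour 4 was high for Dkk4 at 4.98 and low for Fzd1 at 9.44, and tumour 3 was low for Lgr5 at 5.20. Spontaneous tumour 6 was high for Wnt10a at 6.43 and low for Fzd6 at 8.70. Among control lungs, control 1 was low for Axin2 at 8.27, and control 2 was low for Wnt7a at 6.46 and high for Wnt8a at 5.67.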

How the results depend on the processing

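Over 29 alternatives, 18 of them leaving out 1 array each, 3600 gene values were recomputed: 82 calls were lost, 29 were gained, and 1 value reversed, that of Wnt9b in cobalt tumours (0.01 with the average over its probe sets, against -0.27). A further 98 values that were not called changed sign without a call. Wnt2, Wif1, Axin2, Dkk3, Lef1, Wnt11, Wnt3a, Wnt9a, Dkk2 and Fzd5 passed in both comparisons with control lung under every alternative run for them (Wif1, Dkk2 and Wnt3a are not in the one without the dimmest genes). Without the 6064 dimmest genes, which removes 18 of the 42, 10 Wnt genes were lower in cobalt tumours (41.7% of 24, against 23.5% of 12129 genes) and 9 in spontaneous tumours (37.5%, against 21.1%), and 3 and 4 were higher (12.5%, against 21.2%, and 16.7%, against 23.8%). With 1 array left out, counts of those lower ran from 12 to 16 in cobalt tumours and from 13 to 16 in spontaneous tumours, and counts of those higher from 3 to 4 and from 4 to 5.

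With all probe sets in place of genes, 5566 were higher and 6004 lower in cobalt tumours, and 5839 and 5743 in spontaneous tumours, over more features. Among arrays with high Xist alone, 7 other pathway genes were higher in spontaneous tumours (2 arrays). Between cobalt and spontaneous tumours, no Wnt gene passed under any alternative, of which exact permutation could show none, since its smallest p is 0.00216 and 35 and 77 of 18193 genes separate the groups. Of the other pathway genes 1 passed as higher without the dimmest genes, and 0 to 1 with 1 array left out. Over all genes 8 were higher and 7 lower in cobalt than in spontaneous tumours. The higher count was 13 with all probe sets, and the lower count was 14 without the dimmest genes, 12 with averaged probe sets and 12 with array weights. Fitting the 12 arrays alone gave 1 and 0, the high-Xist arrays 0 and 0, and exact permutation 0 and 0. Without spontaneous tumours 2 and 6, 23 were higher and 42 lower. With 1 array left out, they ran from 1 to 36 and from 0 to 46, lowest without cobalt tumour 1 and highest without cobalt tumour 6. The cause of these shifts was not tested.

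Same-numbered arrays did not deviate together (correlations of -0.34 to 0.19, 1 of 18 over 0.1, 0 arrays closest to their own number), so the numbers were not taken as pairs. With the replicate block, 4 Wnt genes were higher and 15 lower in cobalt tumours, 4 and 14 in spontaneous tumours, and 1 and 0 of all genes differed between the tumour groups. The dimmest probe sets limit what can be seen, since their background is unknown here.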
